A study of Rattus norvegicus with 6 samples.

Results

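The genes of the rat major histocompatibility complex (MHC), which carry names starting with RT1, and 7 genes that serve antigen presentation (*B2m*, *Cd74*, *Tapbp*, *Calr*, *Canx*, *Nlrc5* and *Ciita*) were examined in scraped corneal epithelium of streptozocin-induced diabetic rats and normal rats. The members were the rows with an annotated transcript type that carried one of these names and had counts in at least 1 library. This gave 26 rows out of 61453 loci in the tables, of which 31831 had an annotated type. The 26 rows comprised 11 class I rows, 8 class II rows and 7 accessory rows. A further 4 annotated rows (*RT1-M2*, *RT1-M5*, *RT1-Ha* and *RT1-Db2*) had no counts in any of the 6 libraries.

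The diabetic group comprised 3 libraries from male Brown Norway rats that had received 1 intraperitoneal dose of 50 mg/kg streptozocin, a toxin taken up by pancreatic beta cells, and reached the diabetic range of blood glucose. The normal group comprised 3 libraries from male Brown Norway rats that had received citrate buffer. Corneal epithelium was collected at week 16 by scraping trimmed corneas with a blade. Epithelium came from 6 rats in all and from 6 corneas per group, but how these were combined into the 3 libraries of a group was not stated, so the p-values measure the spread between these libraries. Total counts ranged from 62288901 to 87040253 in the diabetic group and from 76500184 to 81139312 in the normal group. The summed level of 7 corneal epithelial marker genes was 15259 to 17078 FPKM in diabetic and 15385 to 15734 FPKM in normal libraries, which fits the labelled tissue. Summed lens markers were uneven, at 159, 1305 and 8.35 FPKM in diabetic replicates 1 to 3, against 378, 115 and 155 FPKM in normal replicates 1 to 3. The 7 keratocyte markers summed to 746, 715 and 806 FPKM in diabetic libraries, against 1029, 1038 and 814 FPKM in normal libraries. These sums did not overlap, but only by 806 against 814 FPKM. All 7 genes had a negative log2 fold change, against 51% of all loci tested. *Lum* was the only 1 whose groups did not overlap, against 5.72% of all loci tested in the lower direction.

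MHC class I molecules sit on nearly all nucleated cells and show peptides from the cell's interior to cytotoxic T cells. Each consists of an RT1 heavy chain and the light chain beta-2 microglobulin, and peptides are loaded in the endoplasmic reticulum with the help of TAP, tapasin, calreticulin and calnexin. MHC class II molecules are made mainly by dendritic cells, macrophages and B cells, pair an alpha with a beta chain, travel with the invariant chain encoded by *Cd74*, and receive peptide with the help of the DM molecule. In the rat, RT1-A molecules are the classical class I molecules, RT1-B corresponds to human DQ and RT1-D to human DR. In the cornea, resident dendritic cells and Langerhans cells are the usual class II bearing cells.

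All values below are FPKM (fragments relative to the length of the locus and the size of the library) unless counts are named, and are listed for replicates 1, 2 and 3 of a group. A locus was called changed at a fold over 1.2 and an adjusted p (Benjamini-Hochberg) under 0.05 from limma on quantile-normalized log2(FPKM + 1). This test was run on the 42551 loci with a mean of at least 0.5 FPKM, and 16 of the 26 members reached that level, namely 9 class I, 2 class II and 5 accessory rows. A fold change on this scale understates the change of a low gene. Of the 26 member rows, 5 joined several gene names in 1 locus.

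No member was called changed. The background was 0.0259% of all loci called by limma, and edgeR's quasi-likelihood test on the counts called 0 members and 0.0141% of all loci. DESeq2 called 0 members and 0.233% of all loci. A missed threshold does not show that the groups were alike. At an unadjusted limma p under 0.05 there were 2 members of 16 (12.5%), *Cd74* and *RT1-Da*, both lower in the diabetic group, against 4.8% of all loci in either direction and 2.35% in the lower direction. The same 2 members had an unadjusted edgeR p under 0.05, where 1.82% of all loci did so in the lower direction and 4.14% in either. Among the 16 tested members the groups did not overlap in 2 rows, again these (12.5%, against 5.72% of all loci tested in the lower direction). Among all 26 members, 3 rows (*Cd74*, *RT1-Da* and *RT1-Db1*) were lower in every diabetic library than in every normal library (11.5%, against 4.72% of the annotated loci with counts), and 0 rows were higher in every diabetic library, against 3.46%. With 3 libraries against 3, the smallest p that an exact permutation test can give is 0.1.

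**Figure D1:**
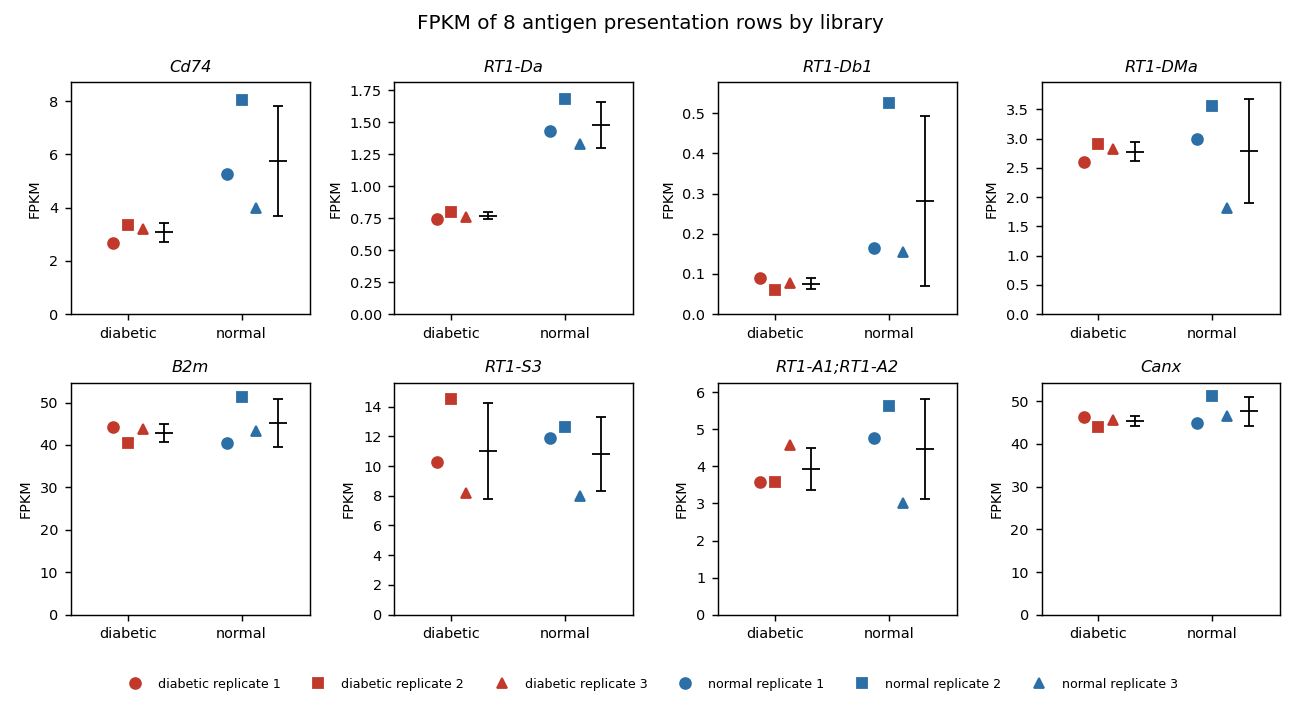
FPKM (linear axes from 0, scaled per panel) of 8 member rows in the 3 diabetic and 3 normal libraries, with 1 point per library and black bars for the group mean ± SD. *Cd74*, *RT1-Da* and *RT1-Db1* lie lower in all diabetic libraries than in all normal libraries, with *RT1-Da* at 0.747 to 0.8 in diabetic and 1.33 to 1.68 in normal libraries, while the other 5 rows overlap.

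The 3 rows that separated the groups were the invariant chain gene and 2 of the 8 class II genes, while the other 6 class II rows overlapped. *RT1-Da*, the RT1-D alpha chain gene (rn6, chromosome 20, 4127644 to 4132616, minus strand), had 0.747, 0.8 and 0.762 FPKM in diabetic libraries, against 1.43, 1.68 and 1.33 FPKM in normal libraries. The 3 diabetic libraries lay close together and all below the 3 normal ones. The mean was 0.77 ± 0.0274 FPKM in the diabetic group and 1.48 ± 0.181 FPKM in the normal group (SD, n = 3 each), which was 48.1% lower in the diabetic group (exact permutation p = 0.1). These means rested on 187, 143 and 142 counts in diabetic and 325, 370 and 313 counts in normal libraries. The limma log2 fold change was -0.47 ± 0.17 (SE; limma adjusted p = 0.953). On the counts, the edgeR log2 fold change was -0.92 (edgeR adjusted p = 0.991), and DESeq2 gave an adjusted p of 0.109. The difference was thus larger than the spread between libraries of either group but did not pass any of the 3 tests after adjustment.

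*Cd74*, the invariant chain gene (rn6, chromosome 18, 56071478 to 56080849, plus strand), had 2.68, 3.35 and 3.21 FPKM in diabetic libraries, against 5.25, 8.03 and 3.97 FPKM in normal libraries. The diabetic values were tight, whereas the normal libraries spread over a wide range, with normal replicate 3 nearest to the diabetic group. The mean was 3.08 ± 0.354 FPKM in the diabetic group and 5.75 ± 2.08 FPKM in the normal group (SD, n = 3 each), which was 46.5% lower in the diabetic group (exact permutation p = 0.1). The limma log2 fold change was -0.67 ± 0.22 (SE; limma adjusted p = 0.953), and it was -0.43 without normal replicate 2, the library with the highest value. The edgeR log2 fold change was -0.88 (edgeR adjusted p = 0.991). In these bulk samples, fewer class II bearing cells and less RNA per cell cannot be told apart. The keratocyte marker sum was likewise lower in every diabetic library, though narrowly, at 715 to 806 FPKM against 814 to 1038 FPKM. The part of keratocyte material in the *Cd74* and *RT1-Da* values was not tested.

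*RT1-Db1*, the RT1-D beta chain gene that partners *RT1-Da* (rn6, chromosome 20, 4087618 to 4097190, plus strand), had 29, 14 and 20 counts in diabetic libraries, against 48, 148 and 47 counts in normal libraries. Its level was 0.0898, 0.0605 and 0.0778 FPKM in the diabetic group and 0.164, 0.526 and 0.154 FPKM in the normal group. The groups did not overlap, but normal replicate 2 held 148 of the 243 counts of the normal group. The row lay under the level filter. Fitted without that filter and adjusted over 50929 loci, its edgeR log2 fold change was -1.80 (edgeR adjusted p = 0.954), and limma gave -0.23 (limma adjusted p = 0.941).

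The RT1-B chains were counted less evenly. *RT1-Ba*, the RT1-B alpha chain gene, had 0, 0 and 59 counts in diabetic libraries, against 36, 28 and 61 counts in normal libraries. In FPKM, diabetic replicate 3 was the highest of all libraries, at 0.582, against 0.292, 0.232 and 0.479 in normal libraries. The absence of counts in diabetic replicates 1 and 2 was thus not shared by diabetic replicate 3, and 0 counts allow a level of up to 0.0345 CPM (counts scaled to library size) in diabetic replicate 1 and 0.0482 in diabetic replicate 2 (3 counts of the library total, counting error only). *RT1-Bb*, the RT1-B beta chain gene, had 8, 17 and 33 counts in the diabetic group and 28, 58 and 10 counts in the normal group. These values overlapped, and the lowest normal library lay below 2 of the 3 diabetic libraries. Summed over the 4 alpha and beta chain rows of RT1-B and RT1-D, the counts were 224, 174 and 254 in diabetic libraries, against 437, 604 and 431 in normal libraries. In FPKM this sum averaged 1.1 ± 0.373 in the diabetic group and 2.18 ± 0.361 in the normal group (SD, n = 3 each), a ratio of 0.504, with *RT1-Da* as the most abundant of the 4 rows in every library. It includes *RT1-Da* and *RT1-Db1*, which separated the groups on their own, so it is a description. Summed over the 7 class II rows without *RT1-Da*, the groups overlapped, at 2.95 to 3.8 FPKM in diabetic and 2.72 to 4.85 FPKM in normal libraries (ratio 0.849).

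**Figure D2:**
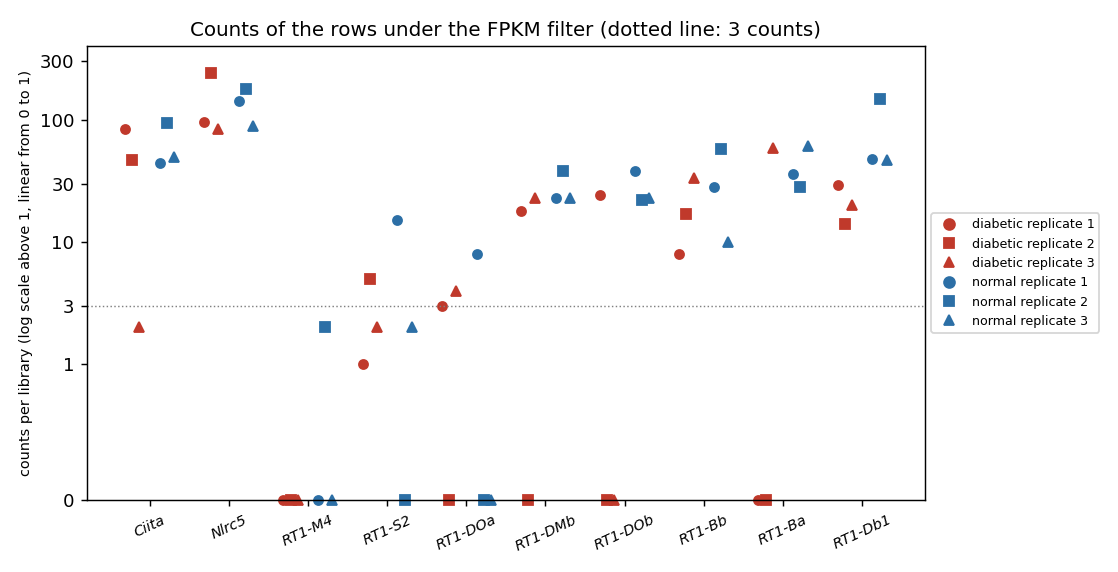
Counts of the 10 member rows with a mean under 0.5 FPKM in the 3 diabetic and 3 normal libraries, with 1 point per library, on an axis that is logarithmic above 1 and linear below, with a dotted line at 3 counts. *RT1-Db1* shows 14 to 29 counts in diabetic and 47 to 148 counts in normal libraries, while the other rows overlap or stand at 0 counts in some libraries.

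The genes for the peptide-loading molecules of the class II pathway did not share this separation. *RT1-DMa*, the alpha chain of the DM molecule (rn6, chromosome 20, 3935529 to 3938915, plus strand), had 2.6, 2.9 and 2.83 FPKM in diabetic libraries, against 2.99, 3.56 and 1.81 FPKM in normal libraries. The diabetic libraries lay inside the range of the normal ones, and the means were 2.78 ± 0.155 FPKM in the diabetic group and 2.79 ± 0.893 FPKM in the normal group (SD, n = 3 each; limma log2 fold change 0.04 ± 0.20 SE, adjusted p = 0.993). It was the most abundant class II row in all 6 libraries, above *RT1-Da*. *RT1-DMb*, the DM beta chain gene, had 18, 0 and 23 counts in diabetic and 23, 38 and 23 counts in normal libraries. *RT1-DOa* and *RT1-DOb* encode the DO molecule, which restrains DM in B cells. *RT1-DOb* had 24, 0 and 0 counts in diabetic and 38, 22 and 23 counts in normal libraries, whereas *RT1-DOa* did not exceed 8 counts in any library. All 8 class II rows had a lower mean FPKM in the diabetic group, against 53.9% of the annotated loci with counts, though the means of *RT1-DMa* were nearly the same and its limma log2 fold change was above 0.

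In other mammals, class II genes and *Cd74* share a promoter module in which an X box, bound by the RFX complex, lies a fixed distance before a Y box, bound by NF-Y, and on which the CIITA protein assembles. The RefSeq promoters of the class II members (build GRCr8, 250 bases before to 50 bases after the gene start) were therefore searched for GATTGG, the reverse complement of the CCAAT core of the Y box, and for GCAAC, a core of the X box, on both strands. These letters were chosen after the sequences had been seen. RefSeq gave promoters for 29 of the 34 member symbols and for 7 of the 8 class II members, all but *RT1-DMb*. GATTGG was present in 7 of 7 class II promoters and in 10 of 17 class I promoters (58.8%), against 14.8% of all 33469 promoters. GCAAC followed by GATTGG on the same strand, with 25 to 45 bases from start to start, was present in 5 of 7 class II promoters and 0 of 17 class I promoters, against 0.353% of all promoters. Over all 29 member symbols with a promoter the count was also 5, so no pair was found outside the class II members. Whether *Cd74* was among the 29 was not recorded, so nothing is said of its promoter. The windows of the class II members are shown because they place the chains that separated the groups beside those that did not, with the 2 letter groups in capitals and each read 5′ to 3′ on the strand of the gene, *RT1-Da* (GRCr8 chr20:4515323-4515380, plus strand), *RT1-Db1* (chr20:4560228-4560284, minus strand), *RT1-Ba* (chr20:4576971-4577028, plus strand), *RT1-DOb* (chr20:4627592-4627646, minus strand), *RT1-DOa* (chr20:4758516-4758573, minus strand), *RT1-Bb* (chr20:4604165-4604224, minus strand) and *RT1-DMa* (chr20:4712385-4712444, minus strand).
RT1-Da: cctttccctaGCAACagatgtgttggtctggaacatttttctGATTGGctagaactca
RT1-Db1: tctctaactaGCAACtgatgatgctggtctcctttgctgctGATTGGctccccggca
RT1-Ba: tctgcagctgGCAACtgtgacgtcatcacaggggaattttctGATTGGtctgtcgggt
RT1-DOb: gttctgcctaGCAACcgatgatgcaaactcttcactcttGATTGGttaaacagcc
RT1-DOa: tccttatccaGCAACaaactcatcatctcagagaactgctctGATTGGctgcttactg
RT1-Bb: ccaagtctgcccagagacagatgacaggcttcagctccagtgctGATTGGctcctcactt
RT1-DMa: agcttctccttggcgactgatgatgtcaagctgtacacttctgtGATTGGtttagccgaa
The start-to-start distance was 32 bases in *RT1-Da*, *RT1-Ba* and *RT1-DOa*, 31 in *RT1-Db1* and 29 in *RT1-DOb*. *RT1-Bb* and *RT1-DMa* held GATTGG without GCAAC at that distance. The module letters were present in *RT1-Da* and *RT1-Db1*, which separated the groups, and also in *RT1-Ba*, *RT1-DOa* and *RT1-DOb*, which did not. *RT1-Ba*, *RT1-DOa* and *RT1-DOb* had few counts and stood at 0 in some libraries, and the part of the module was not tested. A match is a description of the letters and not of binding. Coordinates on GRCr8 differ from the rn6 coordinates of the expression tables.

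The regulators were measured too. *Ciita*, the class II transactivator gene, had 84, 47 and 2 counts in diabetic libraries, against 44, 93 and 49 counts in normal libraries. Diabetic replicate 3 was by far the lowest and diabetic replicate 1 the second highest, so the groups overlapped. *Nlrc5*, the class I transactivator gene, had 96, 242 and 84 counts in diabetic libraries, against 142, 177 and 89 counts in normal libraries, with diabetic replicate 2 the highest library. Both rows lay under the filter, at a mean of 0.0915 ± 0.0788 FPKM in the diabetic and 0.125 ± 0.0587 FPKM in the normal group for *Ciita*, and of 0.32 ± 0.237 FPKM in the diabetic and 0.264 ± 0.0943 FPKM in the normal group for *Nlrc5* (SD, n = 3 each).

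The class I rows overlapped between the groups in every case. *RT1-S3* (rn6, chromosome 20, 3173035 to 3220855), the counterpart of a mouse non-classical class I gene, was the most abundant of them, at 10.3, 14.5 and 8.16 FPKM in diabetic libraries, against 11.9, 12.6 and 7.97 FPKM in normal libraries. Replicate 3 was the lowest library of both groups, and the limma log2 fold change was 0.02 ± 0.23 (SE; limma adjusted p = 0.996). The joined row of *RT1-A1* and *RT1-A2*, the classical class I genes (rn6, chromosome 20, 5347446 to 5421098), had 3.59, 3.59 and 4.57 FPKM in diabetic libraries, against 4.76, 5.64 and 3.01 FPKM in normal libraries. All diabetic libraries lay inside the range of the normal ones (limma log2 fold change -0.11 ± 0.20 SE, adjusted p = 0.978). Reads of these near-identical genes may be shared between rows, so single class I values are uncertain.

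The joined row of *RT1-CE1*, *RT1-CE3*, *RT1-CE4*, *RT1-CE5* and *RT1-CE7*, non-classical class I genes that lie together over 302340 bases of chromosome 20, had 2.25, 2.91 and 1.93 FPKM in diabetic and 2.64, 3.33 and 1.95 FPKM in normal libraries (limma log2 fold change -0.10 ± 0.20 SE, adjusted p = 0.978). The joined *RT1-T24* row was similar, at 2.43, 2.4 and 1.98 FPKM in diabetic and 2.51, 3.06 and 2.16 FPKM in normal libraries. In both rows, replicate 3 was again the lowest library of its group. *RT1-CE10* had the lowest fitted fold change of the class I rows, at 1.4, 0.969 and 0.603 FPKM in diabetic libraries, against 1.12, 2.82 and 1.7 FPKM in normal libraries. Diabetic replicate 1 exceeded normal replicate 1, so the groups overlapped, and the limma log2 fold change was -0.48 ± 0.26 (SE; limma adjusted p = 0.953), and -0.25 without normal replicate 2, where *RT1-N2* was lower at -0.29. *RT1-M3-1*, whose mouse counterpart presents formylated peptides, had the highest fitted fold change of the class I rows, at 1.16, 1.84 and 0.974 FPKM in diabetic and 1.32, 0.78 and 0.801 FPKM in normal libraries (limma log2 fold change 0.25 ± 0.23 SE, adjusted p = 0.956). Without diabetic replicate 2 it was 0.09, below *RT1-N3* at 0.19. *RT1-N2* was uneven within both groups, at 2.45, 1.35 and 1.11 FPKM in diabetic and 4.63, 1.3 and 0.816 FPKM in normal libraries, with replicate 1 the highest of each. *RT1-N3* and the joined *RT1-M6-1* and *RT1-M6-2* row ranged from 1.16 to 2.72 FPKM, with limma log2 fold changes of 0.07 and -0.17. The remaining class I rows were hardly counted. *RT1-S2* had at most 15 counts in a library, and *RT1-M4* had 2 counts, both in normal replicate 2.

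**Figure D3:**
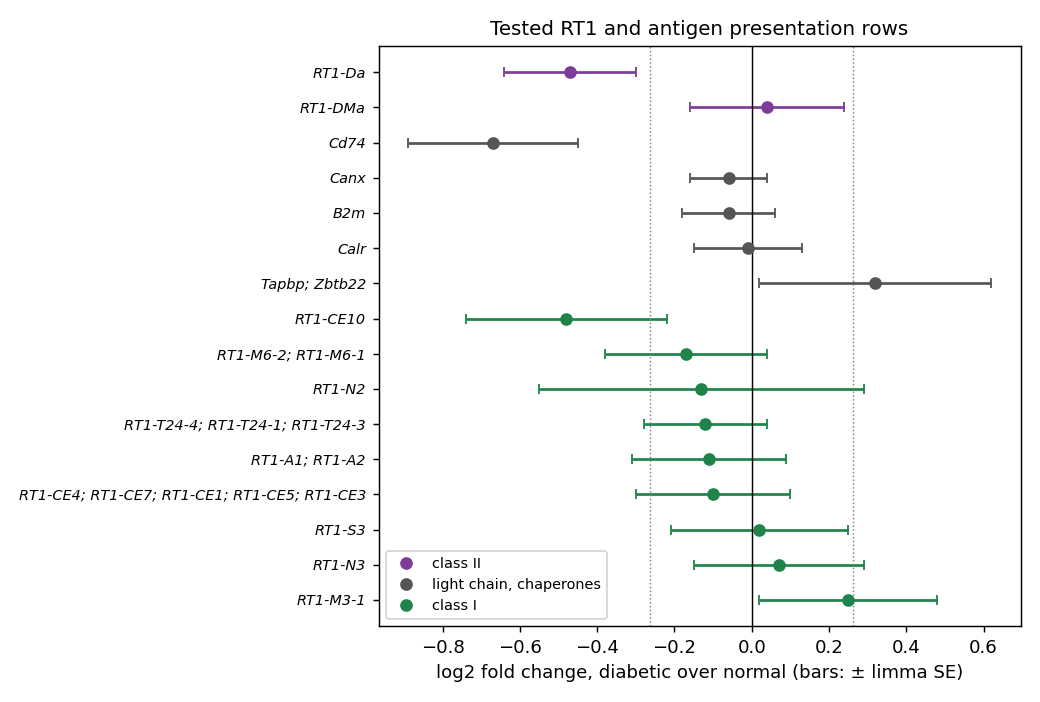
Limma log2 fold changes (diabetic over normal) of the 16 tested members, with bars of 1 standard error and dotted lines at the log2 of a fold of 1.2 in either direction. *Cd74* at -0.67 and *RT1-Da* at -0.47 lie more than 2 standard errors below 0, and *RT1-CE10* at -0.48 has a wider bar.

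Among the tested members, 11 of 16 log2 fold changes were negative (68.8%), against 51% of all loci tested. Their median was -0.079, against -0.005 over all loci. The 9 class I rows had a median of -0.110 with a range of -0.48 to 0.25. Apart from *RT1-CE10*, these rows lay between -0.17 and 0.25.

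*B2m*, *Calr* and *Canx* were the most abundant members and were nearly level between the groups. *B2m*, the class I light chain gene (rn6, chromosome 3, 114087287 to 114093309), had 44.2, 40.4 and 43.7 FPKM in diabetic libraries, against 40.5, 51.4 and 43.4 FPKM in normal libraries. The limma log2 fold change was -0.06 ± 0.12 (SE; limma adjusted p = 0.978). *Calr*, encoding the chaperone calreticulin, averaged 95.6 ± 6.4 FPKM in the diabetic and 97.9 ± 17.9 FPKM in the normal group (SD, n = 3 each). *Canx*, encoding calnexin, averaged 45.3 ± 1.17 FPKM in the diabetic and 47.6 ± 3.33 FPKM in the normal group (SD, n = 3 each), and did not stand apart from *B2m* in level beyond their spread. Both chaperones also serve general protein folding. *Tapbp*, encoding tapasin, shared its row with the neighbouring *Zbtb22*, and this row had 3.34, 7.57 and 3.13 FPKM in diabetic and 3.54, 3.95 and 2.6 FPKM in normal libraries. Diabetic replicate 2 stood alone at the top, and the other diabetic libraries lay inside the normal range (limma log2 fold change 0.32 ± 0.30 SE, adjusted p = 0.956).

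Set against *B2m* within each library, *RT1-Da* was 0.0169, 0.0198 and 0.0174 in the diabetic group and 0.0354, 0.0328 and 0.0307 in the normal group, and *Cd74* was 0.0605, 0.0827 and 0.0734 in the diabetic group and 0.13, 0.156 and 0.0915 in the normal group. The groups stayed apart for both, which were picked for their separation, so these ratios are a description. The ratio of *RT1-Da* to *Cd74* was 0.279, 0.239 and 0.237 in diabetic and 0.273, 0.21 and 0.336 in normal libraries, and overlapped. As ratios of the group means, *RT1-Da* stood at 0.519 and *Cd74* at 0.535, and a difference between the 2 genes was not tested.

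Summed by class, the 11 class I rows reached 28.6, 30.7 and 22.6 FPKM in diabetic libraries, against 33.5, 33.3 and 22.2 FPKM in normal libraries, and the 8 class II rows reached 3.7, 3.82 and 4.56 FPKM in diabetic libraries, against 5.37, 6.54 and 4.05 FPKM in normal libraries. Both sums overlapped between the groups, with group ratios of 0.919 for class I and 0.757 for class II. The class I sum was lowest in replicate 3 of each group. In the same libraries the summed markers of conjunctival epithelium were lowest as well, at 1264, 1241 and 591 FPKM in diabetic and 1258, 1476 and 904 FPKM in normal replicates 1 to 3, and their part in the class I level was not tested. In summed FPKM, class I exceeded class II by 7.73-, 8.04- and 4.95-fold in diabetic and by 6.23-, 5.1- and 5.49-fold in normal libraries. Diabetic replicate 3 had the lowest of these ratios and diabetic replicates 1 and 2 the highest, so this ratio did not separate the groups. The folds depend on the unit, since a joined row is divided by 1 length for all its genes, 22164 bases in the joined *RT1-CE* row. All 8 class II rows held a single name. In counts, class I summed to 15835, 12618 and 9811 in diabetic and 16510, 17967 and 12360 in normal libraries. Class II summed to 718, 533 and 643 counts in diabetic and 976, 1204 and 772 counts in normal libraries.

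**Figure D4:**
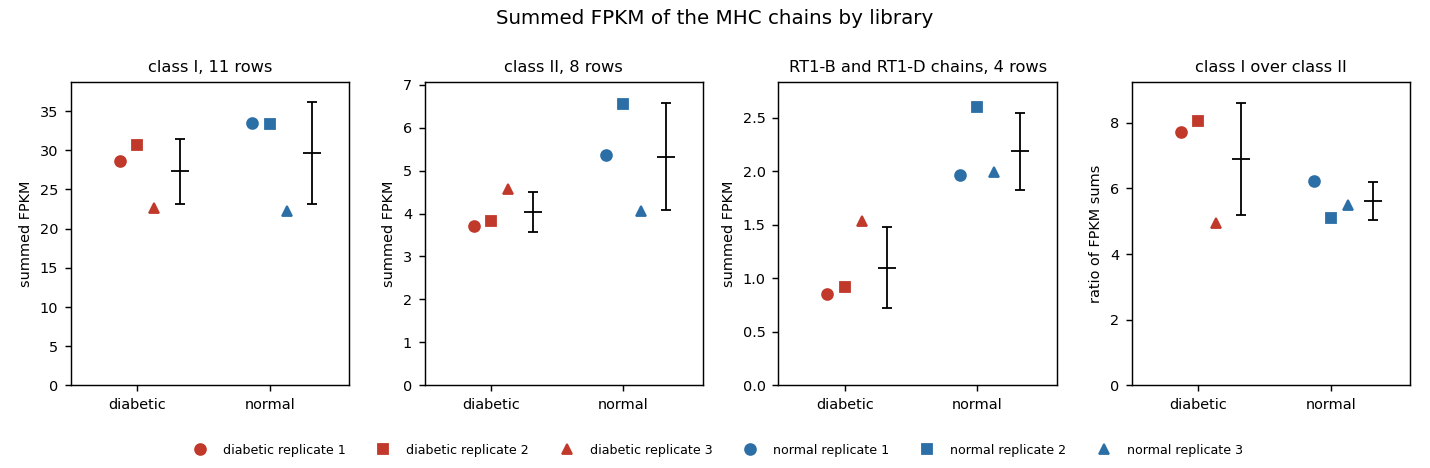
Summed FPKM of the class I rows, the class II rows and the 4 RT1-B and RT1-D chain rows, and the ratio of the class I to the class II sum, in the 3 diabetic and 3 normal libraries, with 1 point per library and black bars for the group mean ± SD. Class I spans 22.6 to 30.7 in diabetic and 22.2 to 33.5 in normal libraries, and class II spans 3.7 to 4.56 in diabetic and 4.05 to 6.54 in normal libraries.

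Genes that mark leukocytes in general were low. The 5 pan-leukocyte genes summed to 2.05, 1.59 and 1.39 FPKM in diabetic libraries, against 2.21, 2.67 and 2.02 FPKM in normal libraries. Of these 5 genes, only *Coro1a*, an actin regulator of leukocytes, was lower in every diabetic library (0.394, 0.254 and 0.0973 FPKM) than in every normal library (0.472, 0.571 and 0.511 FPKM). Among annotated loci with counts, 4.72% were lower without overlap. The *Coro1a* row lay under the level filter, with 63, 29 and 12 counts in diabetic and 69, 80 and 77 counts in normal libraries. *Ptprc*, which encodes CD45, had 0.29, 0.111 and 0.0895 FPKM in diabetic and 0.291, 0.453 and 0.245 FPKM in normal libraries. *Laptm5* was nearly level, at means of 0.419 FPKM in the diabetic and 0.43 FPKM in the normal group. The 10 dendritic and Langerhans cell genes ranged from 35.8 to 49 FPKM in diabetic and from 43.8 to 48.7 FPKM in normal libraries, but most of that sum was *Epcam*, which epithelium also expresses, and the Langerhans marker *Cd207* was at 0 in all libraries. The 6 B cell genes did not exceed 0.116 FPKM in diabetic and 0.263 FPKM in normal libraries, with *Cd79a*, *Cd79b* and *Ms4a1* at 0 throughout. The 12 macrophage and monocyte genes summed to 36.2 to 47 FPKM in diabetic and 34.1 to 37.9 FPKM in normal libraries, most of it from *Lyz2*, *Cd14* and the row that *Cd68* shares with *Mpdu1*, and fold changes of single genes differed in sign. *Cd14*, a receptor for bacterial lipopolysaccharide, was higher in every diabetic library (5.29, 7.66 and 12 FPKM) than in every normal library (4.43, 1.94 and 3.58 FPKM). Its limma log2 fold change was 1.12 (limma adjusted p = 0.953), and 3.46% of annotated loci with counts were higher without overlap. *Csf1r* and *C1qc* overlapped, with limma log2 fold changes of -0.17 and -0.25. The part of leukocyte number in the lower *Cd74* and *RT1-Da* values was not tested.

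Of the member rows, 6 had 0 counts in at least 1 library and counts in another (23.1%, against 25.2% of the annotated loci with counts), namely *RT1-Ba*, *RT1-DMb*, *RT1-DOa*, *RT1-DOb*, *RT1-S2* and *RT1-M4*. The members were thus close to the background in this respect. *RT1-Ba*, *RT1-DMb* and *RT1-DOb* had their zeros in diabetic libraries alone (5 zeros) and counts in all 3 normal libraries, *RT1-S2* had its zero in a normal library, and *RT1-DOa* and *RT1-M4* had zeros in both groups. No row was counted in all libraries of one group and in none of the other.

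The pathway genes outside the members showed no calls either. The 16 tested rows of class I processing were evenly split, 8 above and 8 below a log2 fold change of 0 (median 0.006), and none passed limma or edgeR. The joined row of *Tap1* and *Tap2*, the peptide transporter genes, had 2.84, 3.24 and 3.15 FPKM in diabetic and 2.92, 3.01 and 2.56 FPKM in normal libraries. *Psmb10*, an immunoproteasome subunit gene, had 11.2, 10.3 and 5.84 FPKM in diabetic and 7.28, 6.53 and 6.62 FPKM in normal libraries. Its diabetic replicate 3 lay below all normal libraries while the others lay above them (limma log2 fold change 0.34 ± 0.22 SE, adjusted p = 0.953). *Psmb8*, another immunoproteasome subunit gene, and *Erap1*, which encodes a peptide-trimming aminopeptidase of the endoplasmic reticulum and shared its row with a ribosomal RNA name, had log2 fold changes of 0.22 and 0.13. The 9 tested rows of class II processing had a median of 0.056 (6 positive, 3 negative, 0 calls), among them *Ctss*, encoding the protease that trims the invariant chain, with 1.26, 1.6 and 1.99 FPKM in diabetic and 1.65, 1.14 and 1.22 FPKM in normal libraries. *Marchf8*, encoding a ubiquitin ligase that acts on class II molecules, and the cathepsin genes *Ctsb* and *Ctsh* had log2 fold changes of 0.22, 0.13 and -0.07. The 5 tested class I-like genes outside the RT1 names had a median of 0.055 and 0 calls. The row of *Hfe*, whose product regulates iron uptake, joined with *LOC100912489* and *Hist1h4m*, was at 0.40. It was followed by *Mr1*, whose product presents microbial vitamin B metabolites, at 0.09, and by *Fcgrt*, the neonatal Fc receptor gene, and *Ulbp1*, both at 0.05. Under the level filter, *Raet1e* was higher in every diabetic library (0.18, 0.102 and 0.157 FPKM) than in every normal library (0.0653, 0.0842 and 0.0553 FPKM). It had at most 22 counts, and 3.46% of annotated loci with counts were higher without overlap.

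The factors that bind MHC promoters and transmit interferon gamma signals gave 17 tested rows with a median of 0.036 and 0 calls. *Rfx5*, encoding a subunit of the RFX complex, had 5.44, 5.3 and 4.32 FPKM in diabetic libraries, against 1.23, 5.02 and 0.909 FPKM in normal libraries. Normal replicate 2 lay among the diabetic libraries, and the limma log2 fold change of 1.04 ± 0.40 (SE) did not pass (limma adjusted p = 0.953). *Nfya*, encoding a subunit of NF-Y, had 3.4, 2.74 and 3.08 FPKM in diabetic and 2.92, 6.01 and 5.76 FPKM in normal libraries, which overlapped. *Irf2* was at a log2 fold change of 0.22. *Jak1*, a kinase of interferon receptors, was the only gene of the 18 in this list whose groups did not overlap (3.46% of the annotated loci with counts were higher without overlap), at 27, 27.2 and 27.7 FPKM in diabetic and 26.5, 25.5 and 25.5 FPKM in normal libraries. *Irf1*, an interferon-responsive factor, had 32.5, 69.4 and 40.5 FPKM in diabetic and 39.9, 35.4 and 31.6 FPKM in normal libraries. Diabetic replicate 2, the highest library for *Irf1*, was also the highest for *Nlrc5*, for the *Tapbp* row and for the costimulation gene *Cd274*, which encodes the ligand PD-L1 and had 1.59, 6.54 and 0.867 FPKM in diabetic and 0.97, 1.49 and 0.657 FPKM in normal libraries. This was the library with the highest lens marker sum, and the part of that material was not tested. Beside the joined *Tapbp* row, a *Tapbp* row without an annotated type had no such peak. It had 9.91, 9.82 and 9.3 FPKM in diabetic and 8.69, 10.5 and 10 FPKM in normal libraries. The rows with the peak were picked from several lists. *Rsad2* and *Ifi47* also peaked in diabetic replicate 2, whereas *Ifit1*, *Isg15* and *Irf7* peaked in normal replicate 2. The other tested costimulation gene, *Cd276*, had a log2 fold change of 0.12. *Ifng*, the interferon gamma gene, had 0 counts in all libraries. Among 16 tested interferon-inducible genes the log2 fold change was below 0 in 11 (68.8%, against 51% of all loci tested, median -0.108) with 0 calls. Of the 20 listed, *Ifit2* was the only one whose groups did not overlap, against 4.72% of the annotated loci with counts in the lower direction, at 28.3, 24.6 and 25.5 FPKM in diabetic and 32.4, 34.1 and 28.8 FPKM in normal libraries. *Oasl*, *Ifit1* and *Irf7* had log2 fold changes of -0.50, -0.40 and -0.29 with overlapping groups.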

How the data were processed

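RNA from corneal epithelium of 3 diabetic and 3 normal libraries was sequenced. Per the labels, cutadapt, FastQC, Bowtie2 and the rat build rn6 were used by the authors. For the assembly and counting of loci, the program and its strand setting were not given in the sources used here, nor were tool versions. The authors deposited raw counts and FPKM per locus. In the deposited FPKM, loci without counts carry a tiny positive value, and 86380 such values were set to 0. A joined row holds the reads of all its genes.

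Values of log2(FPKM + 1) were quantile-normalized and tested with limma 3.58.1 (trended eBayes) on loci with a mean of at least 0.5 FPKM. Counts were tested with edgeR 4.0.16 (quasi-likelihood, TMM) and DESeq2 1.42.0 in R 4.3.3. The limma and edgeR p-values were adjusted by Benjamini-Hochberg over the 42551 loci tested, and in an alternative over the loci it tested. Adjusted p-values of DESeq2 came from its default settings, which can leave loci out of the adjustment. Exact permutation tests were two-sided. The fits were tested on simulated data. Every tested member and every row counted in some libraries only was named or summarized, with up to 4 genes of smallest limma p from each other list. *Jak1*, *Raet1e*, *Rsad2*, *Ifi47*, *Isg15* and the marker genes were named after their values were seen.

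The members and gene lists were chosen with earlier results of these data known. Alternatives were other pseudocounts, filters, scalings and tests, a replicate block and leaving out each library. Total counts of 62288901 to 87040253 put the floor of 3 counts at 0.0345 to 0.0482 CPM. Rows without an annotated type were left out of the members.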

Additional observations from a re-analysis of the deposited data

How the results depend on the processing

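No member and no listed pathway gene was called under any alternative of limma or edgeR, DESeq2 included. Over all loci, limma called 11, and 6 with a pseudocount of 0.1, 3 without the level filter, 3 on annotated loci alone, 0 with limma-voom and 3 to 10 when 1 library was left out. edgeR called 6 loci, DESeq2 99, and edgeR with 1 library left out 2 to 14. With the replicate number as a block, limma called 1 locus and edgeR 0. Over all loci tested, the deviations of same-numbered libraries from their group means had correlations of -0.00923, 0.0251 and 0.0323, so the numbers were not taken as pairs. On the second axis of a principal component analysis, however, replicate 3 lay at -40.6 in the diabetic and -49.1 in the normal group. The other libraries lay at 10.8 to 29.3 there. On the first axis the replicate 3 libraries lay apart, at 53.1 and -38.9. What the replicate 3 libraries share was not tested. The log2 fold change of *RT1-Da* ranged from -0.91 to -0.41 and that of *Cd74* from -0.88 to -0.43 over the limma alternatives. *Calr* was 0.01 under limma-voom. With 1 library left out, the ranges of the log2 fold change were -0.13 to 0.12 for *Calr*, -0.03 to 0.52 for the *Tapbp* row, -0.14 to 0.03 for *B2m*, -0.35 to 0.01 for the *RT1-M6* row, -0.47 to 0.36 for *RT1-N2*, -0.07 to 0.27 for *RT1-N3*, -0.19 to 0.2 for *RT1-S3*, -0.25 to 0.04 for the joined *RT1-CE* row, -0.67 to -0.25 for *RT1-CE10*, 0.09 to 0.39 for *RT1-M3-1*, -0.33 to 0.05 for the *RT1-A1* and *RT1-A2* row and -0.17 to 0.19 for *RT1-DMa*. The cause was not tested. The level filter and the few counts of *RT1-Ba*, *RT1-Bb*, *RT1-DMb*, *RT1-DOa*, *RT1-DOb* and *RT1-Db1* limit what can be said of class II.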

Other observations

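A further 30 rows carried a member name but no annotated transcript type, 28 of them with a class I name and 0 with a class II name. Of these, 29 were tested, 0 were called by limma or edgeR, and 0 separated the groups in either direction. The most abundant was a row of 331 bases named *RT1-CE7* (rn6, chromosome 20, 4879486 to 4879816, plus strand), inside the span of the joined *RT1-CE* row but on the other strand. It had 345, 187 and 214 FPKM in diabetic libraries, against 299, 125 and 411 FPKM in normal libraries, far above every annotated class I row, and it varied widely within both groups (limma log2 fold change -0.06, adjusted p = 0.995). A row of 281 bases named *RT1-CE4* had 12, 0 and 0 counts in diabetic and 491, 0 and 10 counts in normal libraries, so that nearly all of its counts came from normal replicate 1.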
